A study of Mus musculus with 15 samples.

Results

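The DnaJ and heat shock chaperones were described across CD11b+ myeloid cells sorted from mouse brain into CD45hi and CD45lo cells. Members were chosen by gene symbol, with earlier results of these data known, and no measured value entered the rule. They are the genes named Dnaja, Dnajb or Dnajc with a number, the genes whose symbol starts with Hspa, Hspb, Hspd, Hspe, Hsph or Hsp90, and Sugt1, without pseudogenes. The rule took 76 gene identifiers, with 75 different symbols because Hspa14 is listed under 2 identifiers, out of 38924 in the series. By class they were 4 DnaJ A, 13 DnaJ B and 28 DnaJ C genes, 12 Hsp70, 3 Hsp110, 3 Hsp90 and 8 small Hsp genes, the 2 genes of the mitochondrial chaperonin, 2 Hsp-binding proteins and Sugt1. All mice were wild type C57BL/6J males of 12 months, on a control chow diet (CD) throughout or on a western diet (WD) from 2 months of age, and the cells were freed from the brain by enzymatic digestion before sorting. The 15 RNA-seq libraries were 4 CD CD45hi, 4 CD CD45lo, 3 WD CD45hi and 4 WD CD45lo libraries, each described in the study's data statement as counts of an animal, although the labels name no animal, and p-values measure the spread between these libraries. The study asked how the cells of each CD45 level differ from each other and whether the diet changes either.

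Heat shock proteins are chaperones that keep other proteins folded. Hsp70 binds unfolded stretches in a cycle driven by ATP, which DnaJ proteins start by bringing in the client and triggering hydrolysis, and which Hsp110 proteins reset by exchanging the nucleotide. Hsp90 takes on clients that are nearly folded, such as kinases and receptors, with co-chaperones that include Sugt1. Small Hsp proteins hold unfolded proteins without using ATP, and Hspd1 and Hspe1 form the folding chamber of the mitochondrial matrix. Some members are made in all cells at all times (Hspa8, Hsp90ab1), some belong to the endoplasmic reticulum (Hspa5, Hsp90b1, Dnajb9, Dnajb11, Dnajc1, Dnajc3), and some are induced by heat and other stress through heat shock factor 1 (Hspa1a, Hspa1b, Hsph1, Dnajb1).

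Heat shock factor 1 binds repeats of a short motif, and promoter sequences of the members were searched for it. The letters searched were GAANNTTC and TTCNNGAA, each of which reads the same on the other strand, and the 2 can overlap. The window ran from 250 bases before to 50 bases after each RefSeq gene start on GRCm38.p6. At least 1 match was present in 4946 of the 32851 promoters of the table (15.1%) and in 4587 of 27025 genes with any promoter there (17.0%). Of the members, 61 had a promoter in the table and 16 of them held a match (26.2%), while 14 were not in the table. The 16 were Dnaja1, Dnaja4, Dnajb4, Dnajb6, Dnajc10, Dnajc27, Dnajc5g, Hspa1a, Hspa1b, Hsph1, Hspb1, Hspb3, Hspb6, Hspb8, Hspd1 and Hspe1. Of the 6 members that passed a test in the comparisons of the study, 5 had a promoter in the table, and only that of Hspb3 held a match. Dnajb1, named above as induced through heat shock factor 1, had 2 promoters in the table and no match. A match is a description of the letters and not a measured binding site, and it does not mark which members belong to the response.

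The stretches below hold matches upstream of the start and belong to the inducible Hsp70 pair, the mitochondrial chaperonin pair, the class A DnaJ with the highest level and the small Hsp genes Hspb1 and Hspb3, with the motif in capitals. Hspa1a and Hspa1b carry the same 32 bases, and Hspd1 and Hspe1 share 1 stretch with 3 matches that is read from opposite strands because they are transcribed away from each other.
Hspa1a, chr17:34972241-34972272, minus strand: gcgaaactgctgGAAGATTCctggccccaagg
Hspa1b, chr17:34959323-34959354, minus strand: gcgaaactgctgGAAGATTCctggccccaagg
Hspd1, chr1:55088047-55088088, minus strand: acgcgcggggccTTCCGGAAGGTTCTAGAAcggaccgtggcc
Hspe1, chr1:55088047-55088088, plus strand: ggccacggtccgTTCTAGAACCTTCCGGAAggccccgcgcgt
Dnaja1, chr4:40722332-40722363, plus strand: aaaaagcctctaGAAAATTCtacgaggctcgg
Hspb1, chr5:135887790-135887841, plus strand: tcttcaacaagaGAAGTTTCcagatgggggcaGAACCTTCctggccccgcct
Hspb3, chr13:113663881-113663912, minus strand: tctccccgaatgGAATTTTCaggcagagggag

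The libraries held 11951412 to 17912272 expected counts, the estimated read counts of RSEM, so that 3 counts correspond to 0.156 to 0.282 normalized counts-per-million (cpm). Mitochondrially encoded genes took 17.68 to 20.5% of the counts in the CD45hi libraries and 7.986 to 10.93% in the CD45lo libraries. Of the microglia markers, P2ry12 had 2825 to 4022 cpm in CD45lo and 962.4 to 1484 cpm in CD45hi libraries, and Tmem119 1013 to 1377 and 347.6 to 722.5 cpm. The 5 monocyte and macrophage markers summed to 2838 to 6939 cpm in CD45hi and 63.77 to 142.4 cpm in CD45lo libraries, and the 6 neutrophil markers to 631.2 to 2445 and 38.71 to 227.9 cpm. Cd3e and Cd3g, which define T cells, were at 0 in every WD CD45hi and every CD45lo library. The 6 markers of lymphocytes and natural killer cells, these genes among them, summed to 19.66 to 86.95 cpm in WD CD45hi libraries. Their sum was 10.11 to 41.32 cpm in CD CD45hi libraries and at most 0.5707 cpm in any CD45lo library. Gzma had the highest mean of these markers in WD CD45hi cells, with 14.29 to 64.02 cpm. In a principal component analysis, CD CD45hi replicate 4 and WD CD45hi replicate 1 stood apart from the rest, at 93 and -134.7 on the second component, where the other libraries lay between -4.5 and 21.5. In bulk samples, fewer cells of a type and less RNA per cell cannot be told apart, and the part of the cell makeup in the results was not tested.

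The highest levels belonged to the general chaperones of the cytosol and the endoplasmic reticulum. Levels between genes were compared in transcripts-per-million (TPM), a unit that corrects for transcript length. The mean over the 15 libraries was 1512 TPM for Hspa8, the constitutive cytosolic Hsp70, and 1460 TPM for Hsp90b1, the Hsp90 of the endoplasmic reticulum. Hspa5, the Hsp70 of the endoplasmic reticulum, had 1112 TPM, Hsp90ab1, the constitutive cytosolic Hsp90, 635.6 TPM, and Dnajc7, a DnaJ that binds both Hsp70 and Hsp90, 334.3 TPM. The first 4 of these were also the 4 highest members in every library, in varying order.

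The 5 highest members together made up 64.6 to 71.1% of the TPM of all members in a library. The other class leaders were Dnaja1 with 208.8 TPM, Dnajb11 with 163.4, Hspd1 with 122.1, Hspa4 with 88.06, Hspb11 with 16.73 and Hspbp1 with 3.894 TPM, and Sugt1 had 23.61 TPM. Inducible Hspa1a had a mean of 59.57 TPM and Hspa1b 8.777 TPM. The small Hsp class was the lowest of the larger classes. Its 8 genes summed to 14.79 to 71.53 TPM in a library, against 1881 to 3763 TPM for the Hsp70 class and 1499 to 3000 TPM for the Hsp90 class.

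**Figure D1:**
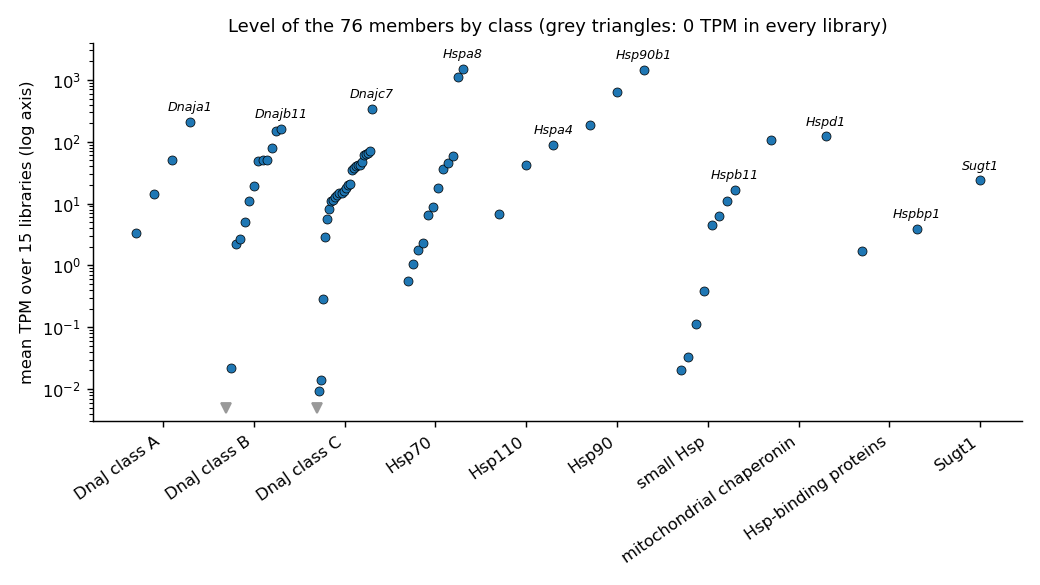
Each point is 1 of the 76 members, placed by class (horizontal axis) and by its mean TPM over the 15 libraries on a log axis (vertical), with grey triangles for members at 0. Hspa8 is highest at 1512 TPM, and the highest small Hsp gene, Hspb11, is at 16.73 TPM.

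A filter on low counts, at least 1 cpm in at least 2 libraries, left 67 members and 14967 genes for the tests. The 9 members that did not pass were Dnajb3, Dnajb8, Dnajc22, Dnajc5b, Dnajc5g, Hspb2, Hspb7, Hspb8 and Hspb9, with at most 14 counts in any library. Dnajb8 and Dnajc5g had no count in any library. Hspb8, a small Hsp that works with Bag3, had at most 10 counts.

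Few of the members passed a test between the CD45 levels or the diets. In all, 6 of the 67 tested members passed a test in any comparison: Hsp90ab1, Hsp90b1, Sugt1, Dnajc1, Hspb3 and Dnajb7. The share of all genes that passed in any comparison was not taken, so this pooled count has no background. With edgeR's quasi-likelihood test and adjustment over all genes (false discovery rate, FDR, under 0.05), 3 of 67 members (4.48%) differed between CD45hi and CD45lo cells of WD-fed mice, 1 higher and 2 lower in CD45hi. Over all genes tested, 9.12% were called in that comparison. In CD-fed mice 3 of 67 members (4.48%) were called, all lower in CD45hi, where 8.03% of all genes were called. When the difference itself was tested against 1.5-fold, 2 members were lower in CD45hi cells of WD-fed mice and none passed in CD-fed mice, with backgrounds of 5.18% and 3.98%. Dnajb7 is in both WD counts, and it passed the filter on low counts through CD45lo libraries only. Without adjustment, 10 members in WD-fed mice (14.9%) and 9 in CD-fed mice (13.4%) had p under 0.05 in the test against 1.5-fold. The shares of all genes there were 17.9% and 14.0%. In the test of any difference, 17 members had an unadjusted p under 0.05 on the WD, 10 higher and 7 lower in CD45hi. That was 25.4%, against 24.5% of all genes. On the CD there were 18, 3 higher and 15 lower in CD45hi, or 26.9% against 20.1% of all genes. DESeq2 and limma-voom each called Hspb3 in CD-fed mice. Without both libraries that stood apart, 5 members were called for any difference in WD-fed mice (Hsp90ab1, Sugt1, Dnajb7, Hspa8 and Hsph1) and 4 in CD-fed mice (Hsp90b1, Dnajb7, Dnajb14 and Dnajc18). The shares of all genes called without these libraries are not given here.

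The differences lay on both sides of 0, and on the CD more members were lower than higher in CD45hi. The median log2 fold change over the 67 members, CD45hi against CD45lo, was 0.16 in WD-fed mice, where the median of all genes was 0.0, and -0.12 in CD-fed mice, where it was 0.04. In WD-fed mice 38 members had a positive and 29 a negative value, and in CD-fed mice 29 and 38. The libraries of both CD45 levels did not overlap in 14 of the 67 members on the WD (20.9%), 8 higher and 6 lower in CD45hi, and in 12 on the CD (17.9%), 1 higher and 11 lower. Over all genes these shares were 23.4% and 16.5%. By direction, 1501 genes were higher and 2001 lower on the WD, and 1236 higher and 1231 lower on the CD. The difference in direction between members and all genes was not tested. The WD and CD comparisons use different libraries.

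**Figure D2:**
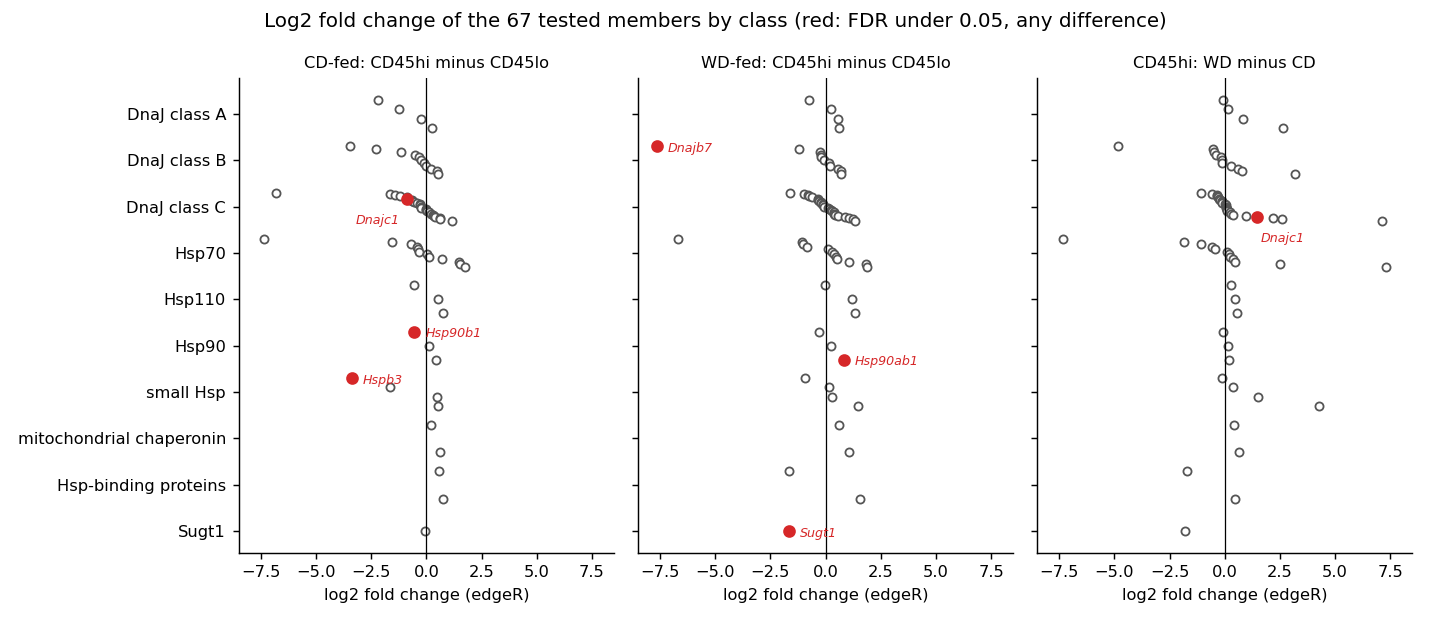
Each point is 1 of the 67 tested members, placed by its log2 fold change (horizontal axis) and class (vertical axis) in 3 comparisons, with members at an FDR under 0.05 in red. Most lie close to 0, and the points beyond 6 on either side are genes fitted against a group at 0 in all or nearly all libraries, whose size depends on the fit.

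Among the Hsp90 genes, Hsp90ab1 (ENSMUSG00000023944, chr17:45567775-45573271, mm10) was higher in CD45hi than in CD45lo cells of WD-fed mice. Its cpm were 977.7, 1027 and 1078 in the WD CD45hi libraries and 612.5, 523.9, 608.5 and 589.5 in the WD CD45lo libraries. The groups did not overlap, and CD45hi was 1.76-fold higher, a log2 fold change of 0.82 (SE 0.199, FDR 0.0138). In CD-fed mice the values were 608.9, 748.9, 1265 and 922 cpm in CD45hi and 544.9, 665, 856.3 and 591.7 cpm in CD45lo, which overlapped (log2 fold change 0.42, SE 0.186, FDR 0.218). The call in WD-fed mice held in all 26 alternative analyses, with log2 fold changes of 0.77 to 0.87 and adjusted p of 0.0014 to 0.0459. The difference between the diets in this contrast was not called (0.40, SE 0.273, FDR 0.672).

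Hsp90b1 (ENSMUSG00000020048, chr10:86690209-86705509), which folds Toll-like receptors and integrins in the endoplasmic reticulum, was lower in CD45hi cells of CD-fed mice. It had 1473, 1748, 1682 and 1646 cpm in CD45hi and 2374, 2220, 2367 and 2541 cpm in CD45lo. The 4 CD45hi libraries all lay below the CD45lo libraries, by 1.45-fold (log2 fold change -0.54, SE 0.154, FDR 0.0399). In WD-fed mice 2 of the CD45hi libraries were at 1449 and 1461 cpm and the other, replicate 3, at 2572 cpm, above every CD45lo library there (2372, 2482, 2267 and 1862 cpm). The log2 fold change was -0.30 (SE 0.167, FDR 0.294). The call in CD-fed mice was lost in 13 of 26 alternative analyses, with adjusted p of 0.00223 to 0.108 over all of them. Its exons overlap those of Gm15344 and Gm25745 on the same strand, and its counts were fractional in all 15 libraries, so some of its reads may be split with other genes. The third Hsp90 gene, stress-inducible Hsp90aa1, had values of 0.24 (SE 0.241) and 0.14 (SE 0.224) on the WD and the CD, with overlapping libraries.

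Sugt1 (ENSMUSG00000022024, chr14:79587691-79635196), a co-chaperone that joins Hsp90 to ubiquitin ligases and to NLR immune receptors, was lower in CD45hi than in CD45lo cells of WD-fed mice. Its cpm were 6.208, 9.795 and 9.278 in the WD CD45hi libraries and 25.31, 24.26, 28 and 29.62 in the WD CD45lo libraries. The groups were far apart, at 3.18-fold (log2 fold change -1.67, SE 0.404, FDR 0.0132), and the difference passed the test against 1.5-fold (FDR 0.049). In CD-fed mice CD45hi cells had 20.9, 15.24, 38.18 and 44.87 cpm and CD45lo cells 34.42, 30.56, 28.83 and 30.53 cpm. There the CD45hi libraries lay on both sides of the CD45lo libraries (log2 fold change -0.06, SE 0.354, FDR 0.961). All 3 WD CD45hi libraries also lay below all 4 CD CD45hi libraries, by 3.53-fold, which missed the threshold (log2 fold change -1.82, SE 0.406, FDR 0.0623). The interaction of diet and CD45 level was -1.61 (SE 0.53, unadjusted p 0.00755, FDR 0.365). The difference of any size in WD-fed mice held in 25 of 26 alternative analyses, and that past 1.5-fold in 6 of 27. Without both libraries that stood apart, its log2 fold change was -1.49 in WD-fed mice, with an adjusted p of 0.0198 for any difference and 0.0661 past 1.5-fold.

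**Figure D3:**
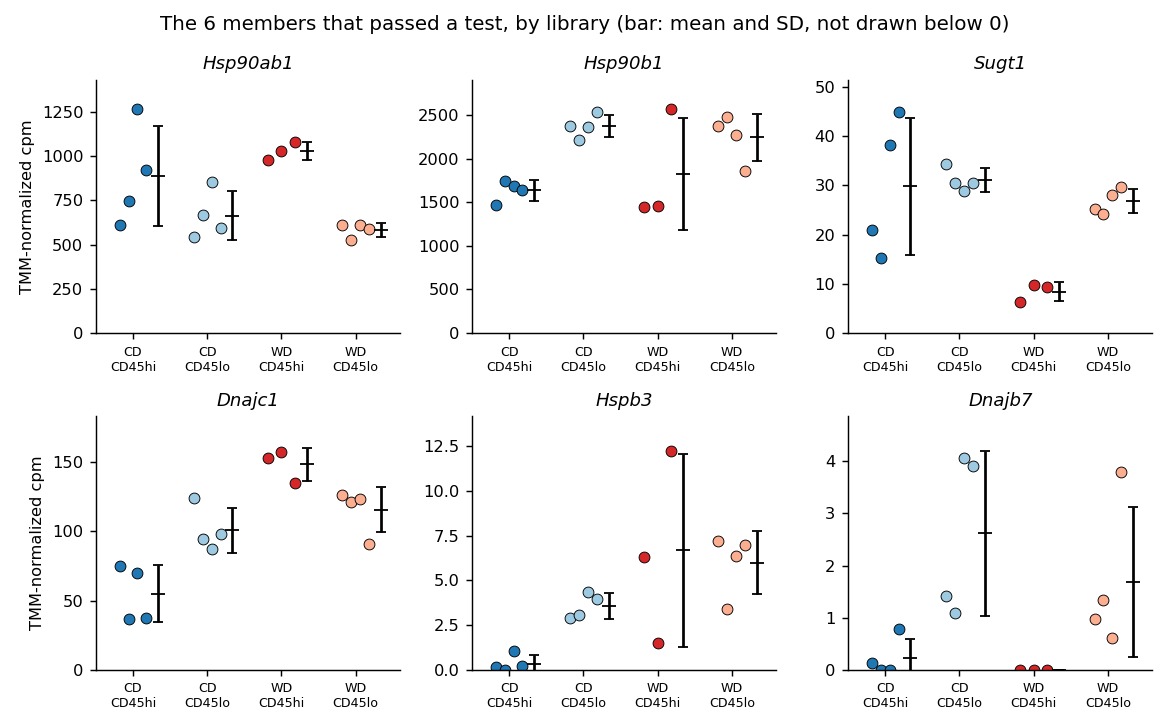
Each panel shows 1 of the 6 members that passed a test, with cpm on the vertical axis from 0 and the 4 groups on the horizontal axis; points are libraries and bars the mean and SD, not drawn below 0. Sugt1 is at 6.208 to 9.795 cpm in WD CD45hi and at 15.24 cpm or more elsewhere, and Dnajc1 at 36.76 to 75.03 cpm in CD CD45hi and at 86.91 cpm or more elsewhere.

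Dnajc1 (ENSMUSG00000026740), a membrane DnaJ of the endoplasmic reticulum that works with Hspa5 at the ribosome, was higher on the WD in CD45hi cells. It had 152.6, 157.3 and 135.1 cpm in WD CD45hi and 75.03, 36.76, 70.11 and 37.21 cpm in CD CD45hi cells. All WD libraries lay above all CD libraries, and the difference was 2.71-fold (log2 fold change 1.44, SE 0.258, FDR 0.0321). That difference did not pass the test against 1.5-fold (FDR 0.111). Dnajc1 was the only member among 67 (1.49%) called between the diets in CD45hi cells, where 0.254% of all genes, 38 in number, were called. The study had already listed Dnajc1 and Sugt1 among its genes that differed between the diets in these cells. In CD45lo cells the values were 126.3, 121.3, 123.3 and 91.15 cpm on the WD and 124, 94.28, 86.91 and 98.05 cpm on the CD, which overlapped (0.20, SE 0.239).

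Dnajc1 was therefore lowest in CD CD45hi cells among the 4 groups. There it fell below CD45lo by 1.84-fold (log2 fold change -0.88, SE 0.241, FDR 0.0317), with no overlap. In WD-fed mice the CD45hi libraries lay above the CD45lo libraries, also with no overlap, but the difference was not called (0.36, SE 0.257, FDR 0.429). Among the members Dnajc1 had the lowest p for the interaction (log2 difference 1.24, SE 0.351, unadjusted p 0.00258, FDR 0.323). The diet call was lost in 9 of 25 alternative analyses (adjusted p 1.13e-05 to 0.719), among them the fit of the compared groups alone (0.719) and the fits without any 1 of the CD45lo libraries other than WD replicate 4. Without both libraries that stood apart, the diet difference was 1.27 (adjusted p 0.0371), and the CD difference between CD45 levels, at -0.73, was not called (0.0717). Dnajc1 lies at chr2:18195654-18392830 (mm10), and its exons overlap those of Mllt10 on the opposite strand. The library kit does not mark the strand, so reads in the overlap cannot be told apart. The counts of Dnajc1 were fractional in all 15 libraries, which RSEM gives where reads are shared with other genes.

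The other calls were in genes with few reads. Hspb3 (ENSMUSG00000051456, chr13:113662896-113663676), a small Hsp known from muscle, had 0.1311, 0, 1.056 and 0.1931 cpm in CD CD45hi and 2.883, 3.061, 4.364 and 3.972 cpm in CD CD45lo libraries. The groups did not overlap (log2 fold change -3.36, SE 1.0, FDR 0.0479), and the call was lost in 18 of 25 alternative analyses. In WD-fed mice it had 6.302, 1.476 and 12.27 cpm in CD45hi and 7.212, 3.413, 6.369 and 6.97 cpm in CD45lo (0.16, SE 0.963). The WD CD45hi libraries lay above all CD CD45hi libraries (log2 fold change 4.27, SE 1.07, FDR 0.0802).

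Dnajb7 (ENSMUSG00000047108, chr15:81406926-81408299), a class B DnaJ, was at 0 in all 3 WD CD45hi libraries. In WD CD45lo cells it had 0.9835, 1.336, 0.6039 and 3.788 cpm. Against 3 counts per library the difference was at least 7.06-fold, and it passed both tests (FDR 0.0306 for any difference, 0.047 past 1.5-fold). Dnajb7 reached at most 0.7725 cpm in any CD45hi library, so the filter of 1 cpm admitted it through CD45lo libraries only. A call between the CD45 levels could then hardly go the other way, and its direction is no separate support. Without WD CD45lo replicate 4, the highest library, the bound was 4.1-fold and neither test was passed (adjusted p 0.067 and 0.1). In CD-fed mice it had 0.1311, 0, 0 and 0.7725 cpm in CD45hi and 1.412, 1.09, 4.057 and 3.915 cpm in CD45lo, with no overlap and no call (FDR 0.164). The call past 1.5-fold was lost in 17 of 26 alternative analyses, and that of any difference in 9 of 25. Hspa1l, an Hsp70 encoded beside Hspa1a, was at 0 in all 4 CD CD45hi libraries and at 0.5883, 4.255, 0.06147 and 0.6242 cpm in CD CD45lo. Against 3 counts per library CD45hi was at least 6.13-fold lower, which missed the threshold (FDR 0.0582). That bound rests on CD CD45lo replicate 2, without which it was 1.88-fold.

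Inducible Hsp70 had the highest values of the Hsp70 class in this contrast without passing the test. Hspa1a had 117, 126.9 and 206.8 cpm in WD CD45hi and 39.01, 23.52, 70.16 and 32.65 cpm in WD CD45lo libraries. The groups did not overlap, and the log2 fold change was 1.86 (SE 0.646, FDR 0.083). In CD-fed mice it had 101, 140.9, 336 and 231 cpm in CD45hi and 25.36, 47.47, 160.4 and 10.67 cpm in CD45lo, where CD45lo replicate 3 lay inside the CD45hi range (1.73, SE 0.612, FDR 0.102). Without that library the CD difference passed the tests of any difference and of 1.5-fold, and its log2 fold change was 2.86. This omission is quoted because of the value of that library, and with all libraries the CD difference was not called. In WD-fed mice the Hspa1a difference past 1.5-fold (FDR 0.17) was not called in any of 27 alternative analyses, with adjusted p of 0.0508 to 0.494. Those results are for the test against 1.5-fold and not for the test of any difference. Hspa1b, the neighbour of Hspa1a, gave 1.83 (SE 0.862, FDR 0.202) and 1.46 (SE 0.807, FDR 0.345).

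Hspa1a (chr17:34969190-34972156) and Hspa1b (chr17:34956436-34959238) are near-identical copies, and their counts were fractional in all 15 libraries, so the split between them is uncertain. An exon of Gm20481 lies opposite Hspa1a. Their sum was 129.3, 155.8 and 209.9 cpm in WD CD45hi and 42.03, 25.9, 79.88 and 34.17 cpm in WD CD45lo. On the CD it was 117, 174.2, 370.1 and 273.3 cpm in CD45hi and 28.47, 54.84, 192.3 and 14.02 cpm in CD45lo. The sum keeps the pattern of Hspa1a, with the groups apart on the WD and CD CD45lo replicate 3 inside the CD45hi range on the CD.

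The main cytosolic Hsp70, Hspa8, and the Hsp110 genes Hsph1 and Hspa4l also lay higher in CD45hi cells of WD-fed mice at an FDR between 0.05 and 0.1. Hspa8 had 1821, 2393 and 1876 cpm in CD45hi and 1487, 1384, 1624 and 1275 cpm in CD45lo (log2 fold change 0.49, SE 0.154, FDR 0.0542). Hsph1, the inducible Hsp110, had 103.7, 135.8 and 263.5 cpm against 55.73, 38.81, 89.76 and 80.24 cpm (1.34, SE 0.459, FDR 0.0782). In both genes all CD45hi libraries were above all CD45lo libraries. Hspa4l, another Hsp110, gave 1.18 (SE 0.42, FDR 0.0895), also with no overlap (25.09 to 42.1 against 9.882 to 21.21 cpm). Hspa4 gave -0.02 (SE 0.205). In CD-fed mice Hspa8 gave 0.14 (SE 0.143), Hsph1 0.76 (SE 0.429), Hspa4l 0.55 and Hspa4 -0.54 (SE 0.19, FDR 0.0969). Hspa8 was called in 12 of 26 alternative analyses on the WD.

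Of the mitochondrial chaperonin, Hspe1 had 80.99, 91.04 and 39.18 cpm in WD CD45hi and 23.47, 31.98, 39.97 and 39.85 cpm in WD CD45lo cells. Replicate 3 of CD45hi lay inside the CD45lo range (log2 fold change 1.06, SE 0.386, FDR 0.0997). Hspd1 had 192.9, 272.5 and 224.3 cpm in CD45hi and 132.7, 161.3, 152.5 and 151.5 cpm in CD45lo, without overlap (0.62, SE 0.233, FDR 0.109). Exons of Hspd1 (chr1:55077835-55088243, minus strand) and Hspe1 (chr1:55088132-55091307, plus strand) overlap. The mitochondrial Hsp70, Hspa9, gave 0.39 (SE 0.312) on the WD and -0.38 (SE 0.291) on the CD.

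Of the DnaJ genes, 40 of them tested, Dnajc1 and Dnajb7 were called. Between the CD45 levels this was 1 of 11 in class B on the WD (9.09%, against 9.12% of all genes). In class C it was 1 of 25 on the CD (4.0%, against 8.03%). Between the diets in CD45hi cells it was 1 of 25 in class C (4.0%, against 0.254%). Median log2 fold changes, CD45hi against CD45lo, were 0.4, -0.05 and -0.09 for classes A, B and C on the WD and -0.76, -0.24 and -0.24 on the CD. Dnaja1, the main partner of Hspa8, had 187.8, 201.9 and 478.8 cpm in WD CD45hi and 213.4, 213.2, 286 and 264.1 cpm in WD CD45lo libraries (0.25, SE 0.313). A single CD45hi library, replicate 3, was above all others there, and without it the log2 fold change was -0.32. Dnaja2 lay higher in WD CD45hi (113.6, 96 and 141.3 cpm) than in CD CD45hi cells (93.32, 67.98, 43.9 and 62.51 cpm), with no overlap and no call (0.81, SE 0.254, FDR 0.136). Stress-inducible Dnajb1 gave 0.19 (SE 0.392) and 0.20 (SE 0.363), and Dnajb6, a suppressor of aggregation, -0.26 (SE 0.234) and 0.0 (SE 0.215), on the WD and the CD. Mitochondrial Dnaja3 had 9.305, 18.05, 4.487 and 9.72 cpm in CD CD45hi and 19.88, 21.48, 32.58 and 25.19 cpm in CD CD45lo, with no overlap and no call (-1.25, SE 0.492, FDR 0.147).

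Of the partners of Hspa5 in the endoplasmic reticulum, Dnajc3 and Dnajb11 had negative values on both diets. Dnajc3, which also limits the kinase Eif2ak2, gave -0.60 (SE 0.232, FDR 0.117) on the WD and -0.54 (SE 0.213, FDR 0.147) on the CD. Dnajb11 gave -0.20 (SE 0.206) and -0.24 (SE 0.19), and Dnajb9, an inducible partner, 0.69 (SE 0.49) and -0.35 (SE 0.457). Hspa5 itself had 968.4, 1382 and 1558 cpm in WD CD45hi and 877.1, 957.8, 1161 and 1208 cpm in WD CD45lo, with overlap (0.31, SE 0.191), and 0.01 (SE 0.178) on the CD. None of these passed the test. Dnajc5, a synaptic vesicle chaperone that other secretory cells also use, gave 0.26 (SE 0.248) and -0.03 (SE 0.23), and Dnajc7 -0.34 (SE 0.217) and -0.29 (SE 0.2).

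Among the small Hsp genes, 4 of 8 were tested, and Hspb3 was the only one called. Hspb11, which also belongs to the transport complex of cilia, had 15.33, 13.91, 14.96 and 11.84 cpm in CD CD45hi and 10.82, 8.924, 8.421 and 10.89 cpm in CD CD45lo. It was the only member whose CD CD45hi libraries all lay above those of CD45lo (0.52, SE 0.424, FDR 0.569). Hspb6 lay the other way on the CD, with 0.9677 to 1.966 cpm in CD45hi and 3.295 to 5.707 cpm in CD45lo (-1.65, SE 0.761, FDR 0.232). Hspb1, the most widely studied small Hsp, had at most 3.485 cpm in any library but WD CD45hi replicate 3, where it reached 12.11 cpm (1.46, SE 1.1, on the WD).

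Replicate 3 was the highest library for a good share of the members. In CD-fed mice it was the highest CD45hi library for 23 of 67 members (34.3%, against 23.7% of all genes) and the highest CD45lo library for 32 (47.8%, against 27.2%). Both held for 12 members (17.9%, against 7.29% of all genes), named here after their values were seen: Dnaja1, Dnajb4, Dnajb9, Dnajc19, Hsp90aa1, Hsp90ab1, Hspa1a, Hspa5, Hspa8, Hspb3, Hspd1 and Hsph1. For Hsp90aa1 the values were 319.7 cpm against 179.3 to 246.8 cpm in the other CD CD45hi libraries, and 303 against 167.6 to 242 cpm in CD45lo. For Dnaja1 they were 437 against 213.2 to 313.1 cpm, and 370.6 against 187.4 to 264.1 cpm. On the WD, replicate 3 was the highest CD45hi library for 30 of 67 members (44.8%, against 31.8% of all genes) and the highest CD45lo library for 23 (34.3%, against 23.6%). These shares are descriptions without a test. The labels do not state whether libraries with the same number come from the same mouse, and titles and file names number the WD libraries differently.

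Within groups, members with a mean of 100 cpm or more had a median coefficient of variation of 25.3% in CD CD45hi, 18.72% in CD CD45lo, 25.84% in WD CD45hi and 10.76% in WD CD45lo libraries. There were 18 such members and 1847 such genes, whose medians were 22.67, 10.77, 22.91 and 11.56%. In CD CD45lo cells the members were thus more variable than other genes of that level, as a description without a test.

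**Figure D4:**
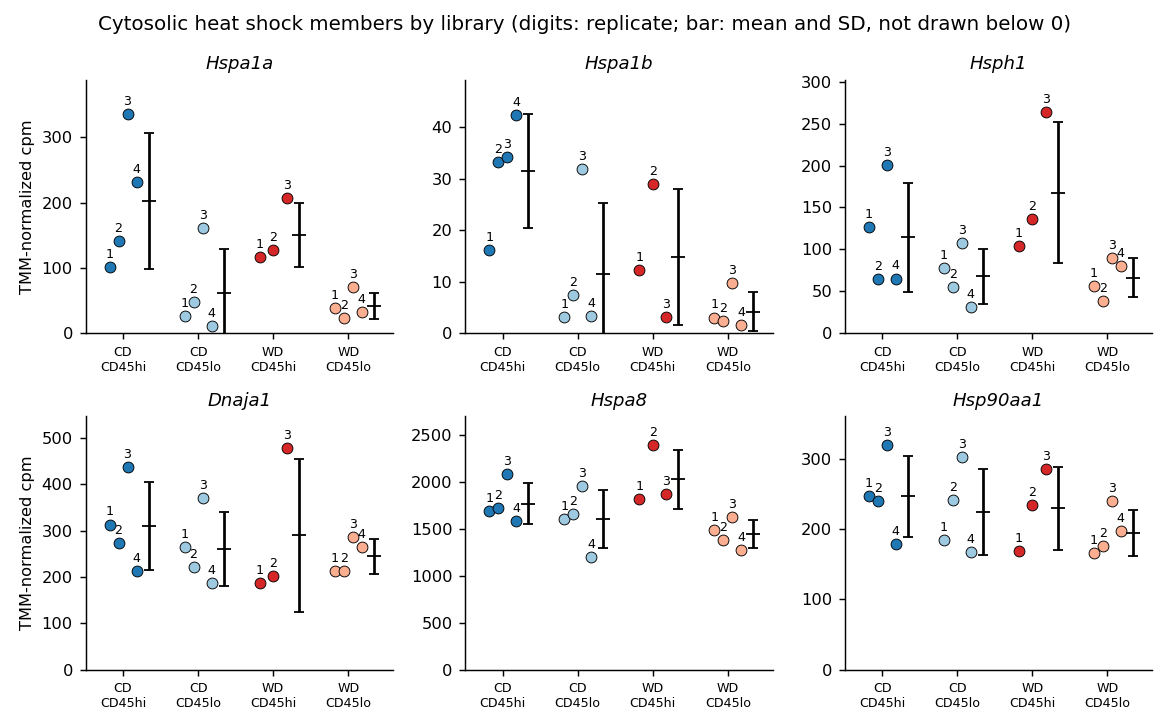
Each panel shows 1 cytosolic member, with cpm on the vertical axis from 0 and the 4 groups on the horizontal axis; points are libraries with their replicate number, and bars the mean and SD, not drawn below 0. CD replicate 3 is the highest library of both CD45 levels for Hspa1a, Hsph1, Dnaja1, Hspa8 and Hsp90aa1, and Hspa1a is higher in all 3 WD CD45hi libraries than in every WD CD45lo library.

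Between the diets, 1 of 67 members (1.49%, against 0.254% of all genes) was called in CD45hi cells, Dnajc1, and none in CD45lo cells. The median log2 fold change of the members, WD against CD, was 0.11 in CD45hi (-0.02 over all genes), and 12 of 67 had an unadjusted p under 0.05, 9 higher and 3 lower on the WD. That share, 17.9%, was near the 17.6% of all genes. In CD45lo cells the median was -0.08 (0.0 over all genes), and no member and no gene was called (0.0%). There, no member and 123 of all genes had an unadjusted p under 0.05, and the members' values ran from -1.45 (Hspa1b, SE 0.812) to 0.97 (Hspa1l, SE 1.55). DESeq2 and limma-voom also called no member in CD45lo cells.

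No member was called for the interaction of diet and CD45 level, where 1 of all genes (0.00668%) was. An unadjusted p under 0.05 was found for 7 members, 10.4% against 10.1% of all genes, and DESeq2 called 1 of them, Dnajc1. The median interaction over the members was 0.24, and -0.04 over all genes. The values of Sugt1 and Dnajc1 are given above, and Hspb3 had 3.52 (SE 1.35, FDR 0.414).

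Some genes of the other folding lists passed a test between the CD45 levels, and none was called between the diets. Over all genes, 9.12% and 8.03% were called between the CD45 levels on the WD and the CD. Between the diets, 0.254% were called in CD45hi and 0.0% in CD45lo cells. The lists of these genes were fixed with earlier results of the series known. Of 26 co-chaperones and nucleotide exchange factors, Bag4 was lower in CD45hi cells of WD-fed mice (log2 fold change -2.66, SE 0.804, FDR 0.0468) and no other was called in any comparison. Of 18 tested genes of other chaperones, Tcp1, a subunit of the cytosolic chaperonin, was higher in CD45hi cells of WD-fed mice (0.88, SE 0.262, FDR 0.0429). Of 21 tested genes of the unfolded protein response, Pdia6, a disulfide isomerase, was lower in CD45hi cells on both diets (-0.95, SE 0.215, FDR 0.00829 on the WD, and -1.05, SE 0.197, FDR 0.00195 on the CD). Edem1, which sends misfolded glycoproteins to degradation, was also lower on both (-0.61, FDR 0.0159, and -0.54, FDR 0.0224). None of the 3 tested heat shock factor genes, Hsf1, Hsf2 and Hsbp1, was called, with Hsf1 at -0.57 (SE 0.437) on the WD and -0.08 (SE 0.4) on the CD.

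Immediate early genes, which enzymatic tissue digestion is known to raise, differed between the same libraries. Of 13 such genes, 5 were called between the CD45 levels on the WD and 6 on the CD, all higher in CD45hi. Over all genes, 9.12% and 8.03% were called. The called genes included Nr4a1 (log2 fold change 4.60, SE 0.35 on the WD), Ier3 (1.69, SE 0.29), Ier2 (1.80, SE 0.491), Zfp36 (1.17, SE 0.186) and Fos (1.12, SE 0.292). Fosb, Jun, Jund, Egr1, Atf3, Dusp1 and Btg2 were called on neither diet. The summed level of the 13 genes was 10570 to 12480 cpm in the CD45hi libraries and 3721 to 8714 cpm in the CD45lo libraries, with no overlap. In CD CD45lo replicate 3, where Hspa1a was high, the sum was 7538 cpm, against 5219, 8714 and 3721 cpm in replicates 1, 2 and 4. The part of digestion or sorting in the levels of the heat shock genes was not tested.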

How the data were processed

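Poly(A)-selected, paired-end libraries of FACS-sorted cells were sequenced. Per the study's methods the authors trimmed and filtered reads and ran RSEM with Bowtie2, and the submitters' processing notes name RSEM 1.2.12, bcl2fastq 2.18.0.12 and mm10. The library kit does not mark strand and the methods state default settings, while the annotation release is not given in the sources used here. RSEM divides reads shared by several genes, so the deposited expected counts of near-identical genes are estimates. The deposited TPM values, made by the authors with the same program, are corrected for length and sum to a fixed total, so they were used only to compare levels between genes.

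After rounding the expected counts, a gene was tested if 2 or more of the 15 libraries reached 1 cpm, which held for 14967 of 38924. Libraries were scaled by TMM. The quasi-likelihood test of edgeR 4.0.16 (R 4.3.3) was fitted with 1 mean per group of diet and CD45 level, with Benjamini-Hochberg adjustment over all genes tested and a threshold of 0.05. Differences past 1.5-fold were tested with glmTreat. Alternatives were DESeq2 1.42.0, limma-voom 3.58.1, other filters and scalings, a replicate block, and leaving out single libraries. Library depth was 11951412 to 17912272 expected counts, and limits from 3 counts cover counting error only. The tests were checked on simulated counts.

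Named genes were all called members, members with textbook roles, in each class the 3 with the highest TPM, in each comparison the 3 with the lowest p, and the called genes of the other lists. Dnajb14 and Dnajc18 were named after their values were seen. The members and lists were chosen with earlier results of these data known. Promoters are from RefSeq (GRCm38.p6) and gene positions from GENCODE M21 on mm10. Protein sequences were not analysed here. The methods name more than 1 sequencing instrument without assigning libraries, so instrument and group cannot be told apart. The summed level of the microglia marker list is not reported here.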

Additional observations from a re-analysis of the deposited data

Results flagged for a closer look

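The 37 named members were checked in the 3 groups of 4 libraries, which gave 108 sets of values besides 3 sets that were at 0 throughout. Of the 108, 6 held a library that stood far from the others by Dixon's criterion, and chance gives about 1 in 20 such sets. CD CD45hi replicate 4 had 0.7725 cpm of Dnajb7, where the other libraries of its group had 0.0 to 0.1311. WD CD45lo replicate 4 had 91.15 cpm of Dnajc1, against 121.3 to 126.3 in the others. CD CD45lo replicate 1 had 138.7 cpm of Dnajc5, against 115.5 to 117.5. WD CD45lo replicate 1 had 0.0 cpm of Dnajc6, against 0.6819 to 0.7686. CD CD45lo replicate 3 had 31.9 cpm of Hspa1b, against 3.118 to 7.368. CD CD45lo replicate 2 had 4.255 cpm of Hspa1l, against 0.06147 to 0.6242.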

How the results depend on the processing

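No named value changed sign where it was called. The counts of members below stand without the share of all genes called under the same setting. They do not show whether a change in a count is particular to the members. Past 1.5-fold in WD-fed mice, where 2 members were called, DESeq2, limma-voom, DESeq2 size factors, a filter of 10 cpm in 3 libraries, leaving out both libraries that stood apart and dropping mitochondrially encoded genes each gave 1, while the edgeR 4 form, no filter, the compared groups alone and either replicate block gave 0. In CD-fed mice, where 0 were called, DESeq2, limma-voom and the replicate block by file names gave 1, and the replicate block by titles, leaving out both libraries that stood apart and a limit set after the test gave 2. For any difference, with 3 called on each diet, DESeq2 gave 9 on the WD and 5 on the CD, limma-voom 6 on the CD, DESeq2 size factors and the compared groups alone 1 on the CD, and leaving out both libraries that stood apart 5 on the WD. Between diets in CD45hi cells, with 1 called, DESeq2 gave 5, the edgeR 4 form 3, the compared groups alone and the replicate block by titles 0, and leaving out both libraries that stood apart 2. DESeq2 gave 1 for the interaction, with 0 otherwise. Leaving out single libraries gave 0 to 2 and 0 to 1 past 1.5-fold (WD, CD), 2 to 6 and 0 to 5 for any difference, 0 to 3 between diets in CD45hi cells, and 0 for diet in CD45lo cells and the interaction. Calls for any difference on the WD were 6 without WD CD45hi replicate 3 and 5 without CD CD45hi replicate 4 or CD CD45lo replicate 3 or 4. On the CD they were 0 without CD CD45lo replicate 1, 2 or 4, 1 without CD CD45hi replicate 1 or WD CD45lo replicate 1 or 3, and 5 without WD CD45hi replicate 1. Calls past 1.5-fold on the WD were 0 without any 1 WD or CD CD45lo library and 1 without CD CD45hi replicate 1. Diet calls in CD45hi cells were 3 without WD CD45hi replicate 2 and 2 without CD CD45hi replicate 2 or 3. Over all genes, the median log2 change was -0.265 (WD) and -0.222 (CD) with limma-voom, -0.249 and -0.215 with the replicate block by file names, and -0.128 and -0.107 with that by titles, so values under them are relative to that shift. The cause of these changes was not tested. Over all genes tested, the deviations of same-numbered libraries from their group means had correlations of -0.0217 to 0.0695 by title. All genes had a median coefficient of variation of 61.34% in CD CD45hi and 65.47% in WD CD45hi libraries. With such a spread, these correlations cannot decide whether same-numbered libraries come from the same mouse.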
